A study of Mus musculus with 33 samples.

Results

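The antioxidant and glutathione genes were taken as a set of 39 genes chosen by symbol: glutathione peroxidases, enzymes that make and recycle glutathione, the transcription factor NRF2 (Nfe2l2) with its inhibitor Keap1, the NRF2-induced genes Nqo1, Hmox1 and Srxn1, the thioredoxin system, peroxiredoxins, superoxide dismutases and catalase, glutathione S-transferases and enzymes of the pentose phosphate pathway. All 39 were found among the 32285 gene identifiers of the files. Of these, 38 were among the 13606 genes tested, which passed a filter of 1 CPM (counts scaled to library size) in 3 or more libraries. The remaining member, the secreted peroxidase Gpx3, had 13 counts in all, spread over 6 of 33 libraries (10 in in vivo AKP, 1 in mini-colon AKP #i and 2 in #ii), too few to compare.

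Glutathione is a small thiol peptide with which cells reduce peroxides and tag reactive compounds for export. Glutathione peroxidases use it to remove peroxides, S-transferases attach it to electrophiles, and thioredoxin with the peroxiredoxins forms a parallel route, both drawing electrons from NADPH, of which the pentose phosphate pathway is a main source. NRF2 is kept low by KEAP1 and, once released, switches on many of these genes. In the colon, Gpx2 is known as the peroxidase of the gut epithelium, mostly of its crypts.

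The libraries came from mouse colon organoids and were prepared by QuantSeq, in which only the 3′ end of a transcript is read. In vivo AKP (6 libraries) were organoids from colon tumours of tamoxifen-treated mice in which Cdx2-creERT2, active in the gut epithelium, recombined engineered alleles that include Apc fl/fl and Trp53 fl/fl. Mini-colon AKP #i to #v (3 libraries each) were organoid lines taken from tumours that arose after the same alleles were recombined by a light-activated Cre (OptoCre) in mini-colons, tube-shaped epithelia grown on a chip. Lines #i and #ii came from mini-colons rich in tumours of the lumen, and #iii, #iv and #v from those rich in tumours of the crypt. Organoid AKP (6 libraries) were organoids recombined by blue light in conventional culture and kept alongside, and control (6 libraries) were organoids with the floxed alleles and OptoCre that were never induced. Every line spent its last 24 h in basal medium, which lacks growth factors, B-27, N2 and N-acetylcysteine, a cysteine precursor and antioxidant. The labels tie no library to an animal or culture. The methods describe the bulk libraries as independent sets of samples, and a figure legend counts those of organoid AKP and mini-colon AKP as cultures. The methods also mention newly made OptoCre lines for each replication, without tying this to single libraries. The p-values therefore measure the spread between libraries of a line, pooled over the lines. Whether the libraries of a line span several animals or tumours is not given in the sources used here.

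Total counts ranged from 2438672 to 8256526 per library. Library codes carried a letter, E or F, whose meaning the sources used here do not give: control, organoid AKP and in vivo AKP had 3 libraries of each, mini-colon AKP #i, #ii and #iii only E, and #iv and #v only F. In the lines with both letters, the spread that p-values measure includes the difference between letters. In vivo AKP came from animals of the other sex, with a mean of 723 CPM for Xist, against 0.374 CPM for organoid AKP and 0.467 CPM for control, and sex and line cannot be told apart. This touches Prdx4 and G6pdx, which lie on chromosome X. Mean Trp53 tags were 25.5 CPM for in vivo AKP, 1.77 CPM for organoid AKP and 17.1 CPM for control, but a 3′ tag may lie outside the deleted part and then checks nothing. Immune markers summed to no more than 17.9 CPM in any library.

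Selenocysteine codons are shown for Gpx1, Gpx2, Gpx4 and Txnrd1 because these selenoproteins went different ways in organoid AKP. Gpx3, a selenoprotein as well, had too few counts to compare and is left out. Gpx1, Gpx2 and Gpx4 read an in-frame TGA, elsewhere a stop, as selenocysteine at the active site, whereas Gpx8, a peroxidase of the endoplasmic reticulum, has 0 in-frame TGA in its 209 codons. Thioredoxin reductase 1 (Txnrd1) has it as codon 498 of 499, just before the stop. The stretches below run 5′ to 3′ on the coding strand with the TGA in capitals (GRCm39), at chr9:108216626-108216676, plus strand, for Gpx1 (codon 47 of 201), chr12:76842006-76842056, minus strand, for Gpx2 (codon 40 of 190), chr10:79890547-79890597, plus strand, for Gpx4 (codon 73 of 197) and chr10:82731847-82731876, plus strand, for Txnrd1.
Gpx1: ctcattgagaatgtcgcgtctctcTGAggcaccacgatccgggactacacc
Gpx2: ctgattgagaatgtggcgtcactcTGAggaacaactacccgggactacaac
Gpx4: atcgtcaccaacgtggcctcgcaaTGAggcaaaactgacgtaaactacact
Txnrd1: ggagacatcctccagtctggctgcTGAggt
In organoid AKP against control, Gpx2 and Txnrd1 rose, Gpx1 fell and Gpx4 was not called.

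Organoid AKP against control compares recombined with never-induced organoids in conventional culture. The methods describe a medium rich in added growth factors for establishing organoids, and a leaner one for expanding tumour organoids. Which of these each line had before its last 24 h is not spelled out. The paper also reports no growth of healthy organoids in basal medium. Recombination therefore cannot be told apart from earlier medium or growth, and the part of each was not tested. The set was mostly lower: 22 of 38 members fell (57.9%, against 33.6% of all genes tested) and 7 rose (18.4%, against 37.3%), with a median log2 fold change of -0.61 over the members and 0.06 over all genes. A call is an adjusted p under 0.05 in edgeR's quasi-likelihood test with Benjamini-Hochberg adjustment over all genes, as for every adjusted p below. The summed level of the members was 7297 ± 240 CPM in organoid AKP, against 15249.9 ± 1633 CPM in control (SD, n = 6 each). The sum of the epithelial markers was lower as well: all 10 were detected in both lines, and it was 3610 to 3950 CPM in organoid AKP libraries, against 14800 to 15700 CPM in control libraries. These markers fell unequally. The surface-cell keratin Krt20 was at 0.922 CPM, against 645 CPM in control, and Krt19 at 884 CPM, against 4720 CPM. Cdh1 was at 757 CPM, against 1330 CPM, and Krt18 at 689 ± 104 CPM, against 723 ± 55.2 CPM. Their part in the falls was not tested, and in bulk libraries fewer cells of a type and less RNA per cell cannot be told apart. All 29 calls had the same sign within letter E and within letter F, and 28 were called in both. Libraries of the 2 lines did not overlap in 27 of 38 members, but this also held for 49.9% of all genes.

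**Figure D1:**
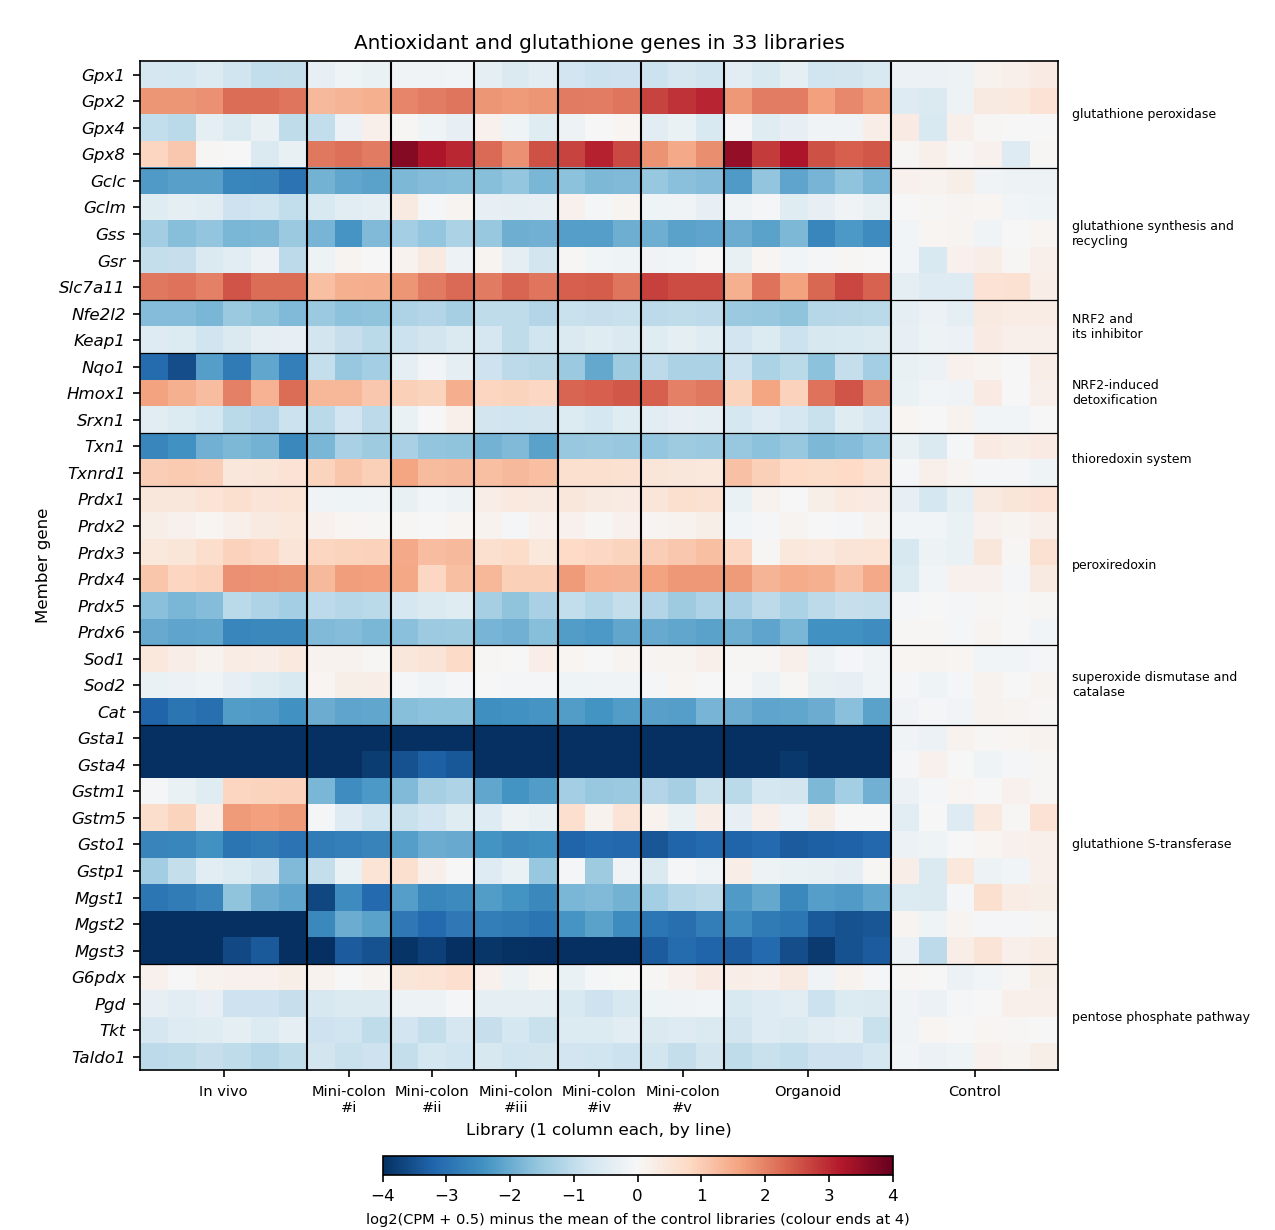
Level of each of the 38 tested members in every library, as log2(CPM + 0.5) minus the mean of the control libraries, with members in rows by role and libraries in columns by line. S-transferases such as Gsta4 are blue in all AKP lines, Gpx2 and Slc7a11 are red in all of them, and Mgst2 is darkest blue in in vivo AKP.

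The S-transferases held the largest falls. Gsta4 (ENSMUSG00000032348, chromosome 9, 78090056 to 78117763, plus strand, GRCm39), which clears the lipid peroxidation product 4-hydroxynonenal, was at 44.7 to 105 CPM (median 70.4) in organoid AKP libraries, against 1366 to 1700 CPM (median 1522) in control libraries, a log2 fold change of -4.44 ± 0.17 (SE; adjusted p = 3.25e-21). Gsta1 (ENSMUSG00000074183, chromosome 9, 78137927 to 78149966, plus strand), another alpha-class enzyme, was at 0.3404 to 1.95 CPM (median 0.894) in organoid AKP, against 89.6 to 115 CPM (median 109) in control (-6.80 ± 0.25, adjusted p = 5.37e-22). Both sets of libraries lay far apart in either gene. The organoid AKP level of Gsta1 rests on 26 counts, against 2953 in control, and 91.5% of the 50-base words at its 3′ ends occur in Gsta2, Gsta5, Gsta13 or a further gene model, so the counts cannot be given to 1 gene with certainty.

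Gsto1 (ENSMUSG00000025068, chromosome 19), an omega-class enzyme with thiol transferase activity, was at 84.4 to 96.9 CPM (median 90.04) in organoid AKP, against 718 to 987 CPM (median 859.7) in control (-3.24 ± 0.10, adjusted p = 1.35e-24). No library of one line reached the range of the other. The membrane-bound enzymes followed. Mgst2, which also makes leukotriene C4, was at 17.2 to 34.4 CPM (median 22.5) in organoid AKP, against 176 to 217 CPM (median 200.1) in control (-3.11 ± 0.14, adjusted p = 8.73e-20). Mgst3, of the same family, was at 19.4 to 32.5 CPM (median 26.2) in organoid AKP, against 138 to 403 CPM (median 331) in control (-3.53 ± 0.32, adjusted p = 6.67e-11). Mgst1, found in the endoplasmic reticulum and mitochondria, was at 16.5 to 23.7 CPM (median 20.9) in organoid AKP, against 67.2 to 157 CPM (median 106) in control (-2.33 ± 0.20, adjusted p = 4.65e-12). In all of them the lowest control library exceeded the highest organoid AKP library, and control Mgst1 was higher in each letter F library than in any of letter E.

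The mu-class enzyme Gstm1 fell to 28.6 ± 9.93 CPM in organoid AKP, against 66.4 ± 6.61 CPM in control (-1.24 ± 0.22, adjusted p = 9.75e-06). Gstm5 (-0.10 ± 0.22) and the pi-class Gstp1 (-0.17 ± 0.27) were not called. Summed over the family, organoid AKP held 280.4 ± 40.5 CPM, against 3177 ± 206 CPM in control. Of the 19 S-transferases and relatives outside the set, 15 fell and 1 rose, where 33.6% of all genes fell and 37.3% rose. Gstt1 was at 2.08 ± 1.03 CPM in organoid AKP, against 14.8 ± 4.17 CPM in control, and Gstk1 at 5.63 ± 1.49 CPM, against 25.5 ± 5.64 CPM.

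**Figure D2:**
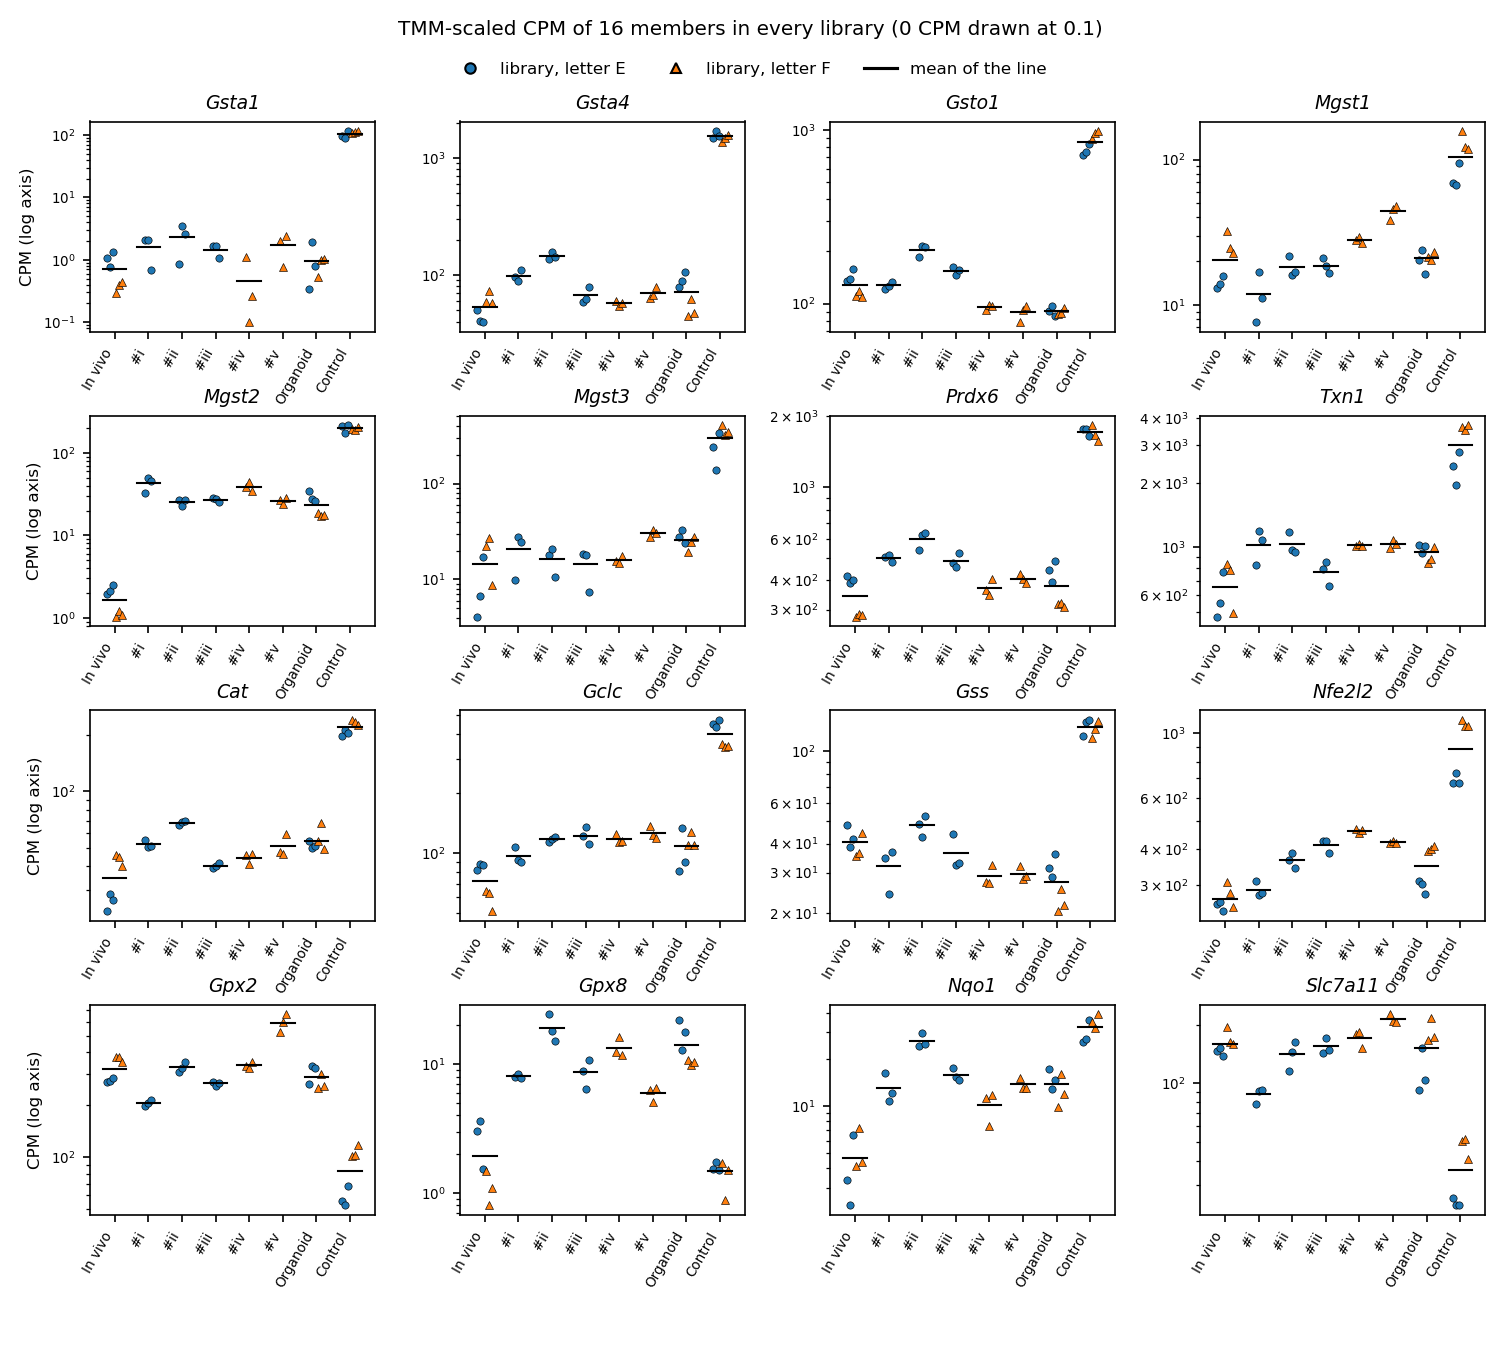
TMM-scaled CPM (log axis) of 16 members in each of the 33 libraries by line, with circles for letter E, triangles for letter F, a bar for the mean of a line and 0 drawn at 0.1. Control libraries stand above every AKP library for Gsta1, Gsta4, Gsto1, Prdx6, Cat and Gclc, and below every AKP library for Gpx2 and Slc7a11. Gpx8, Nqo1 and Slc7a11 were added after their values were seen.

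Both enzymes of glutathione synthesis fell, while the cystine importer rose. Gclc, the catalytic subunit of the rate-limiting glutamate-cysteine ligase, was at 81.4 to 134 CPM (median 109.9) in organoid AKP, against 343 to 470.3 CPM (median 394) in control (-1.87 ± 0.12, adjusted p = 1.86e-15). Gss, the glutathione synthetase, was at 20.5 to 36.1 CPM (median 27.03) in organoid AKP, against 115 to 137 CPM (median 129) in control (-2.23 ± 0.12, adjusted p = 1.62e-17). Neither overlapped between the lines, and the Gss gene overlaps 4 annotated genes on the other strand and 1 on its own. Gclm, the modifier subunit of the ligase, changed by -0.24 ± 0.09, adjusted p = 0.0217, and without TMM scaling by -0.17, adjusted p = 0.127. Slc7a11, which brings in cystine, was at 152 ± 46.9 CPM in organoid AKP, against 35.9 ± 13.4 CPM in control (2.04 ± 0.19, adjusted p = 2.19e-11), and glutathione reductase (Gsr) was not called (-0.08). Among 20 other glutathione and glutaredoxin genes 5 rose and 8 fell, where 37.3% of all genes rose and 33.6% fell. Chac1, which degrades glutathione, was at 57.3 ± 13.8 CPM in organoid AKP, against 7.27 ± 3.58 CPM in control, and Abcc3, an exporter of conjugates, at 8.48 ± 1.95 CPM, against 150 ± 16.2 CPM.

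Nfe2l2 was lower, at 281 to 408 CPM (median 352) in organoid AKP, against 674 to 1114 CPM (median 898) in control (-1.35 ± 0.11, adjusted p = 1.41e-12). In both lines each letter F library was above each letter E library, and the lines did not overlap. Keap1 fell less (-0.69 ± 0.10). The NRF2-induced members divided: the quinone reductase Nqo1 was at 13.9 ± 2.75 CPM in organoid AKP, against 32.4 ± 5.13 CPM in control (-1.24 ± 0.16, adjusted p = 3.3e-08), Srxn1, which repairs overoxidized peroxiredoxins, fell (-0.65 ± 0.10), and Hmox1, which degrades haem, rose to 14.3 ± 6.43 CPM, against 3.82 ± 0.667 CPM in control (1.89 ± 0.24, adjusted p = 1.04e-08). Of 26 other NRF2 targets and partners 12 fell and 7 rose, where 33.6% of all genes fell and 37.3% rose. The epoxide hydrolase Ephx1 was at 12.4 ± 3.33 CPM in organoid AKP, against 298 ± 34 CPM in control, and the aldo-keto reductase Akr1b8 at 13.5 ± 3.22 CPM, against 151 ± 11.7 CPM.

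The peroxide-removing enzymes and the thioredoxin system went both ways. Prdx6, a peroxiredoxin that takes its electrons from glutathione, was at 307 to 484 CPM (median 356) in organoid AKP, against 1577 to 1830 CPM (median 1717) in control (-2.18 ± 0.11, adjusted p = 2.03e-18). Catalase (Cat) was at 49.2 to 68.3 CPM (median 52.9) in organoid AKP, against 196 to 239.6 CPM (median 219) in control (-1.997 ± 0.12, adjusted p = 3.03e-16). Txn1, the cytosolic thioredoxin, was at 845 to 1026 CPM (median 973) in organoid AKP, against 1959 to 3706 CPM (median 3152) in control (-1.66 ± 0.14, adjusted p = 3.58e-12). None overlapped between the lines, and within control the letter F libraries had the higher Txn1. Prdx5 (-1.08) and Gpx1, the main cytosolic glutathione peroxidase (-0.62), fell as well. Txnrd1, which reduces thioredoxin, rose to 307 ± 44.2 CPM in organoid AKP, against 170.2 ± 16.99 CPM in control, and Prdx4 of the endoplasmic reticulum to 39.6 ± 4.69 CPM, against 14.4 ± 2.99 CPM. The call for mitochondrial Prdx3 (0.38 ± 0.14, adjusted p = 0.0165) was lost within letter F (0.04) and without control replicate 1 or 3 or organoid AKP replicate 1 or 3. Prdx1, Prdx2, Sod1 and Sod2 were not called.

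Gpx2 (ENSMUSG00000042808, chromosome 12, 76839107 to 76842326, minus strand) was at 249 to 332 CPM (median 281) in organoid AKP, against 52.5 to 118 CPM (median 84.7) in control (1.77 ± 0.14, adjusted p = 5.06e-13). Control libraries of letter F had more of it than those of letter E, and the rise was 2.35 within letter E and 1.26 within letter F. Gpx8 rose to 13.99 ± 4.95 CPM in organoid AKP, against 1.49 ± 0.314 CPM in control (3.20 ± 0.28, adjusted p = 2.09e-12), on 362 and 40 counts. Gpx4, which protects membrane lipids, was not called (-0.14), and 85.8% of its 3′ words occur in pseudogenes. The pentose phosphate enzymes Taldo1 (-0.89), Pgd (-0.60) and Tkt (-0.58) fell, and G6pdx, the entry enzyme, was not called (0.12). Of 15 other NADPH sources 8 rose and 4 fell, with the mitochondrial folate enzyme Mthfd2 at 483 ± 21.6 CPM in organoid AKP, against 22.7 ± 6.3 CPM in control. Of 14 other thioredoxin genes 7 rose and 4 fell, and of 19 other selenoproteins and genes of their synthesis 8 rose and 8 fell, among them the selenium carrier Selenop at 2.21 ± 1.95 CPM in organoid AKP, against 314 ± 52.8 CPM in control. Beside the counts of these lists, 37.3% of all genes rose and 33.6% fell.

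**Figure D3:**
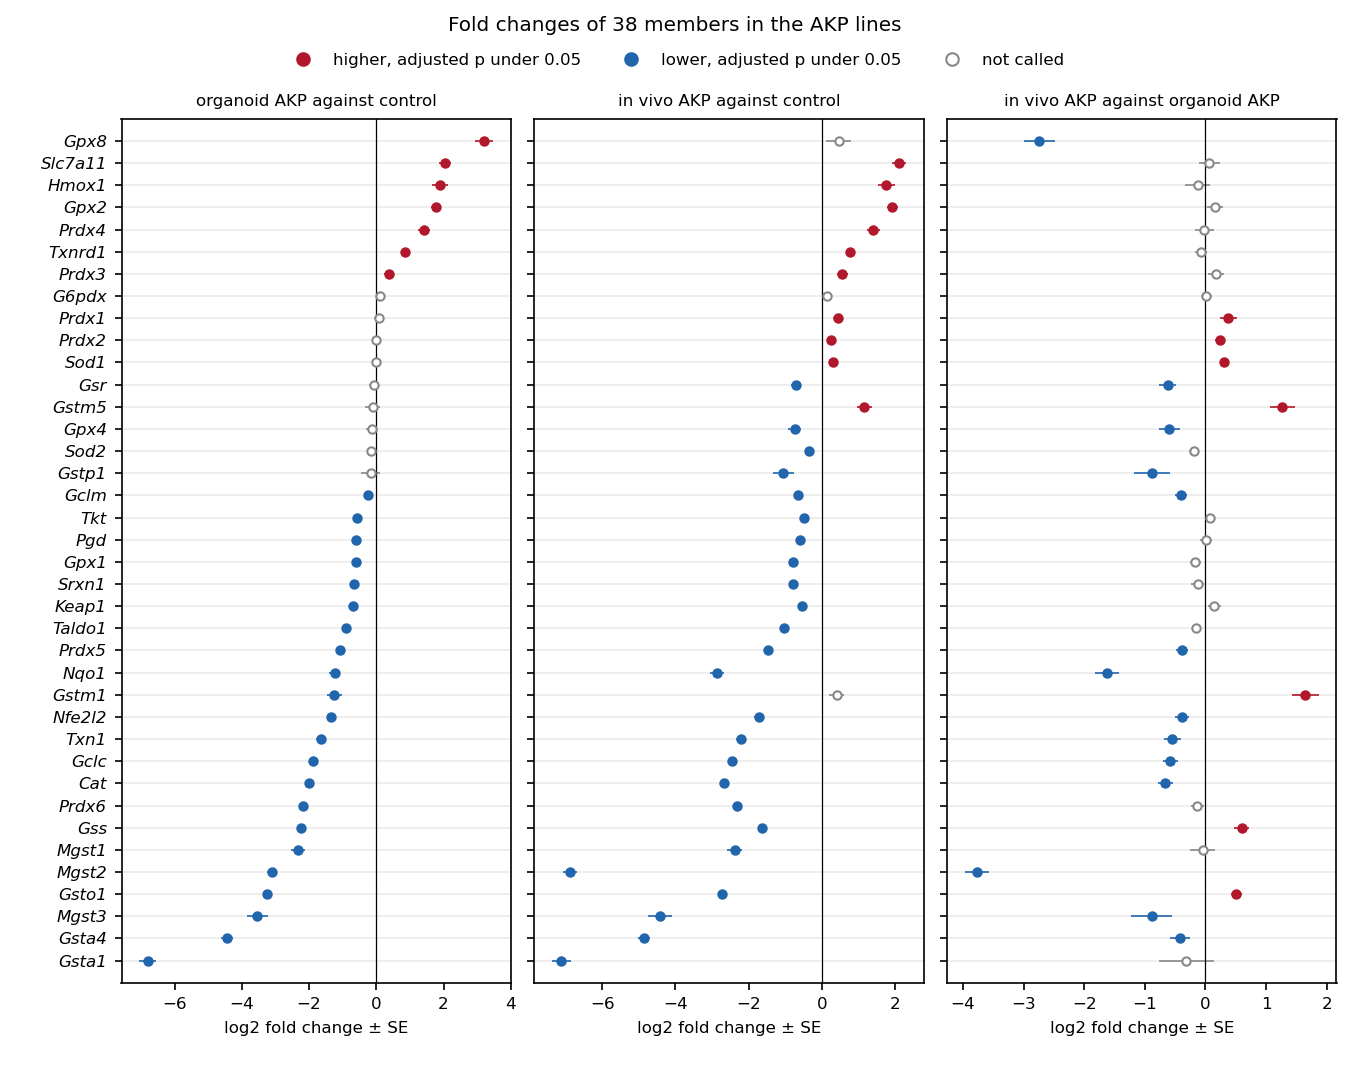
Log2 fold change with its standard error for each of the 38 members in organoid AKP against control, in vivo AKP against control and in vivo AKP against organoid AKP, with called members filled. Gsta1 is lowest against control, at -6.80 in organoid AKP and -7.11 in in vivo AKP, and Mgst2 (-3.77) and Gpx8 (-2.74) are lowest in in vivo AKP against organoid AKP.

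In vivo AKP against control gave 25 lower members (65.8%, against 33.3% of all genes) and 10 higher (26.3%, against 38.8%). The control libraries are those of the comparison above, so the values are only set side by side. The limits on medium and growth given there hold here too. Gsta4 was at 39.5 to 73.2 CPM (median 53.9) in in vivo AKP (-4.86 ± 0.17), and Gsta1 at 0.295 to 1.34 CPM (median 0.603) (-7.11 ± 0.26), with the control levels given above. Gpx2 was at 269 to 375 CPM (median 317) in in vivo AKP (1.93 ± 0.14, adjusted p = 6.19e-14). These 3 genes kept apart from every control library, as did 26 of 38 members and 47.3% of all genes. Unlike in organoid AKP, Gpx8 was not called (0.46 ± 0.34) and Gstm5 was higher (1.16 ± 0.21). The epithelial markers summed to 3620 to 4060 CPM in in vivo AKP libraries, against 14800 to 15700 CPM in control, and their part was not tested.

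In vivo AKP against organoid AKP compares mutant cells from tumours of the mouse with those made in culture. In all, 14 members were lower (36.8%, against 17% of all genes) and 7 higher (18.4%, against 17.4%). Libraries of the lines did not overlap in 10 of 38 members, and in 14.2% of all genes. Mgst2 (ENSMUSG00000074604, chromosome 3, 51567781 to 51590098, plus strand) was at 1.03 to 2.495 CPM (median 1.58) in in vivo AKP, against 17.2 to 34.4 CPM (median 22.5) in organoid AKP (-3.77 ± 0.20, adjusted p = 8.87e-17). Every in vivo AKP library was below every other library of the series for this gene, on 50 counts against 616 in organoid AKP, and the change was -3.71 within letter E and -4.01 within letter F. Gpx8 was at 1.93 ± 1.14 CPM in in vivo AKP, against 13.99 ± 4.95 CPM in organoid AKP (-2.74 ± 0.25, adjusted p = 1.02e-10), and Nqo1 at 4.65 ± 1.87 CPM, against 13.9 ± 2.75 CPM (-1.62 ± 0.19, adjusted p = 2.24e-08). Of the 26 other NRF2 targets and partners 8 were higher and 6 lower, where 17.4% of all genes were higher and 17% lower. Akr1b8 was at 3.24 ± 1.02 CPM in in vivo AKP, against 13.5 ± 3.22 CPM in organoid AKP, and the reductase Ptgr1 at 96.7 ± 39.3 CPM, against 29.6 ± 6.64 CPM. Fibroblast and muscle markers, mostly Vim, summed to 45 to 286 CPM in in vivo AKP libraries, against 6.13 to 25.7 CPM in organoid AKP libraries, with 7 of 10 detected against 5. Endothelial markers summed to 195 to 850 CPM, against 4.77 to 14.8 CPM, with 8 of 8 detected against 5, but mostly from Prox1 (449 CPM, against 4.26 CPM), while the defining gene Cdh5 was at 0.457 CPM, against 0 in organoid AKP. Their part in these differences was not tested.

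Several enzymes that were low in organoid AKP were lower again in in vivo AKP. Cat was at 23.1 to 46.1 CPM (median 34.2) in in vivo AKP, against 49.2 to 68.3 CPM (median 52.9) in organoid AKP (-0.66 ± 0.13, adjusted p = 7.2e-05). Txn1 was at 475 to 837 CPM (median 657) in in vivo AKP, against 845 to 1026 CPM (median 973) in organoid AKP (-0.55 ± 0.14, adjusted p = 0.00232). Neither overlapped between the lines, but the Txn1 call was lost within letter F (-0.35, adjusted p = 0.0844). Gclc was at 51.1 to 88.2 CPM (median 73.5) in in vivo AKP, against 81.4 to 134 CPM (median 109.9) in organoid AKP (-0.58 ± 0.12, adjusted p = 0.000284), and Nfe2l2 at 244 to 309 CPM (median 260.3), against 281 to 408 CPM (median 352) (-0.38 ± 0.11, adjusted p = 0.00806). Both overlapped between the lines, and within letter E neither was called (-0.23 and -0.21). Mgst3 was at 4.095 to 27.2 CPM (median 13) in in vivo AKP, against 19.4 to 32.5 CPM (median 26.2) in organoid AKP, and its call (-0.89 ± 0.34, adjusted p = 0.0401) was lost within each letter and without any 1 of 5 organoid AKP libraries (all but replicate 4) or of in vivo AKP replicates 1, 2 and 6. Gsr (-0.63), Gpx4 (-0.60), Gclm (-0.41), Prdx5 (-0.39) and Gstp1 (-0.88) were lower too, the last with 63.4% of its 3′ words shared with Gstp2 and a pseudogene. Within letter E, Gpx4 (-0.49) and Gclm (-0.21) were not called, and the call of Gstp1 was lost within each letter (-0.94 in E and -0.79 in F) and without in vivo AKP replicate 6. Prdx6, at 279.9 to 418 CPM (median 339) in in vivo AKP, and Mgst1, at 13 to 32.3 CPM (median 19.2), were not called against organoid AKP.

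Among the higher members were a pair of mu-class transferases. Gstm1 was at 88.6 ± 37.2 CPM in in vivo AKP, against 28.6 ± 9.93 CPM in organoid AKP (1.65 ± 0.22, adjusted p = 4.36e-07), and Gstm5 at 33.8 ± 13.3 CPM, against 13.9 ± 2.08 CPM (1.27 ± 0.21, adjusted p = 9.76e-06). Gsto1 was at 110 to 157 CPM (median 127) in in vivo AKP, against 84.4 to 96.9 CPM (median 90.04) in organoid AKP (0.51 ± 0.09, adjusted p = 3.21e-05). Gss was at 35.2 to 48.3 CPM (median 40.3) in in vivo AKP, against 20.5 to 36.1 CPM (median 27.03) in organoid AKP (0.60 ± 0.12, adjusted p = 0.000202). Gsto1 did not overlap between these lines and Gss did, and in vivo AKP stayed below every control library in both. Prdx1 (0.38), Sod1 (0.31) and Prdx2 (0.24) were slightly higher, and Gpx2 was not called (0.16). The change of Gpx2 differed between letters, by 0.62 for letter F minus letter E (interaction test, adjusted p = 0.00033). The Prdx1 call held within each letter but was lost without the filter on low counts, without organoid AKP replicate 1 and without any 1 of in vivo AKP replicates 3 to 6, and within letter E neither Sod1 (0.19) nor Prdx2 (0.19) was called. Outside the set, the theta-class transferase Gstt2 was at 39.2 ± 8.03 CPM in in vivo AKP, against 0.452 ± 0.295 CPM for organoid AKP (control: 0.261 ± 0.266 CPM). It was among 4 higher genes of the 19 other S-transferases and relatives, of which 3 were lower. Over all genes, 17.4% were higher and 17% lower.

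The letters did not give the same change in every gene. Between letter F and letter E of a line, 21 members differed in in vivo AKP, 15 in organoid AKP and 14 in control, where 47%, 29.6% and 21.7% of all genes did. The change of in vivo AKP from organoid AKP differed between letters in 11 members (20.1% of all genes), and that of organoid AKP from control in 13 (13.4% of all genes). Gstm1 was higher in in vivo AKP by 2.58 within letter F and 0.59 within letter E, and Prdx4 was at 0.44 within letter F and -0.55 within letter E. Gsta4, at 39.5 to 73.2 CPM (median 53.9) in in vivo AKP, against 44.7 to 105 CPM (median 70.4) in organoid AKP, was called lower over all libraries (-0.42 ± 0.16, adjusted p = 0.0376) and within letter E (-1.07), but was at 0.28 within letter F (adjusted p = 0.0501), and the call was also lost without any 1 library of letter E of either line. Of the 21 calls, 20 had the same sign in both letters and 11 were called in both. What sets the letters apart was not tested.

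**Figure D4:**
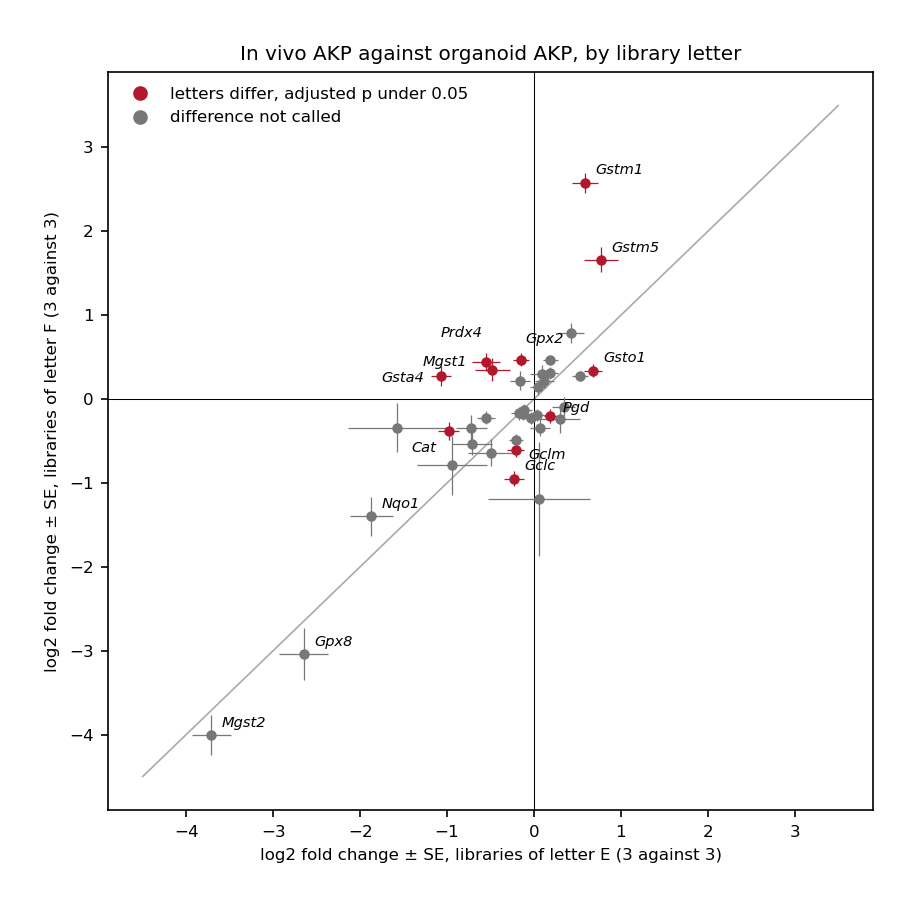
Log2 fold change of in vivo AKP against organoid AKP for each member within letter E (horizontal axis) and letter F (vertical axis), 3 libraries against 3, with the line of equal values and, in red, the 11 members that differed between letters. Mgst2 (-3.71 and -4.01) lies near the line, and Gstm1 (0.59 and 2.58) and Gsta4 (-1.07 and 0.28) lie above it.

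The 5 mini-colon AKP lines were each set against the same 6 organoid AKP libraries. Line #ii had 15 higher members of 38 (39.5%, against 11.9% of all genes) and 1 lower (2.63%, against 12.7%). Within letter E the counts were 15 (11.6% of all genes) and 2 (12.1%), and 13 of the 16 calls were made again. Gsto1 was at 186, 215 and 212 CPM in #ii, against 84.4 to 96.9 CPM (median 90.04) in organoid AKP (1.17 ± 0.11, adjusted p = 7.12e-10). Gsta4 was at 136, 158 and 144 CPM in #ii, against 44.7 to 105 CPM (median 70.4) in organoid AKP (1.05 ± 0.18, adjusted p = 9e-05). Both exceeded every organoid AKP library and stayed below every control library. Gss was at 48.6, 42.9 and 52.5 CPM in #ii, against 20.5 to 36.1 CPM (median 27.03) in organoid AKP (0.83 ± 0.15, adjusted p = 8.82e-05). Prdx6 was at 539.6, 624.9 and 635 CPM in #ii, against 307 to 484 CPM (median 356) in organoid AKP (0.67 ± 0.13, adjusted p = 0.000249). Again no library overlapped, as for 15 of 38 members and 23.5% of all genes. Gsta1, at 0.862, 3.42 and 2.62 CPM in #ii, overlapped organoid AKP, and its call (1.34 ± 0.43, adjusted p = 0.0221) was lost within letter E and without #ii replicate 2 or 3 or organoid AKP replicate 4.

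Some of the higher members of #ii are well-known NRF2 targets. Nqo1 was at 26.4 ± 2.88 CPM in #ii, against 13.9 ± 2.75 CPM in organoid AKP (0.93 ± 0.19, adjusted p = 0.000704), Srxn1 at 107 ± 17.8 CPM, against 68.9 ± 7.304 CPM (0.64 ± 0.12, adjusted p = 0.000256), and Txnrd1 at 446 ± 55.3 CPM, against 307 ± 44.2 CPM (0.54 ± 0.12, adjusted p = 0.00168; SD, n = 3 in #ii and 6 in organoid AKP). Gclm (0.39), Prdx3 (0.88), Prdx5 (0.49), Sod1 (0.60), Gpx1 (0.48), Pgd (0.43) and G6pdx (0.43) made up the rest. Of these, G6pdx was not called within letter E (0.29, adjusted p = 0.0617), the call of Gclm was lost without #ii replicate 1 and with the replicate block, and that of Pgd without #ii replicate 3. The 1 lower member, Hmox1 (-0.73 ± 0.27, adjusted p = 0.0429), was at -0.01 within letter E, and its call was lost without organoid AKP replicate 4, 5 or 6 or #ii replicate 1 or 2. Nfe2l2, at 366, 387 and 345 CPM in #ii, was not called (0.06) but was 0.29 higher and called within letter E. Outside the set, 9 of 26 NRF2 targets and partners were higher in #ii and 1 lower, where 11.9% of all genes were higher and 12.7% lower. Among the higher were Akr1b8 at 49.8 ± 4.84 CPM, against 13.5 ± 3.22 CPM in organoid AKP, the carbonyl reductase Cbr3 at 11.4 ± 1.91 CPM, against 4.5 ± 0.965 CPM, and Osgin1 at 22.8 ± 2.53 CPM, against 10.5 ± 1.18 CPM. Akr1b8 was also higher in #i (34.2 ± 1.79 CPM) and #iv (38.7 ± 1.5 CPM).

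The core of the antioxidant response element, the DNA word bound by NRF2 with small MAF proteins, was searched as TGACNNNGC on both strands of the 250 bases upstream of each start (RefSeq, GRCm38.p6). It may overlap the AP-1 word TGACTCA, as it does in Prdx1. Of the 34 members with a promoter entry 8 held it (23.5%, against 11.5% of the 27025 genes with an entry): G6pdx, Gclm, Gstm5, Mgst1, Nfe2l2, Prdx1, Sod1 and Txnrd1. A gene counted as a holder if any of its starts matched, and other starts of Txnrd1 and Mgst1 held no match. By promoter, 19% of the 42 of members held it, against 10.2% of all 32851. The promoters of Txnrd1, Gclm, Sod1 and G6pdx are shown, as the holders that were called higher in #ii with all libraries (G6pdx not within letter E), 5′ to 3′ on the strand of the gene with the word in capitals, which in all of them reads on the opposite strand. The stretches are chr10:82858956-82859205 (plus strand, word 92 bases from the start), chr3:122245307-122245556 (plus strand, 134 bases), chr16:90220512-90220761 (plus strand, 56 bases) and chrX:74428881-74429130 (minus strand, 57 bases).
Txnrd1: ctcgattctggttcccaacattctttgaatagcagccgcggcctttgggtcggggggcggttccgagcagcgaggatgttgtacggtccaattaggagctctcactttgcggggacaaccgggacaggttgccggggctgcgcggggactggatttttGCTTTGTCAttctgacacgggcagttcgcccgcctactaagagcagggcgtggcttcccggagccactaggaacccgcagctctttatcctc
Gclm: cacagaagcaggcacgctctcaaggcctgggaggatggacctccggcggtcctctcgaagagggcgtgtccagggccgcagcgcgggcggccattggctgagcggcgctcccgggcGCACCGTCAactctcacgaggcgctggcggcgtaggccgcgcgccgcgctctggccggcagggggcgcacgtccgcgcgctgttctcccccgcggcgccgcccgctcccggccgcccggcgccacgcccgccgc
Sod1: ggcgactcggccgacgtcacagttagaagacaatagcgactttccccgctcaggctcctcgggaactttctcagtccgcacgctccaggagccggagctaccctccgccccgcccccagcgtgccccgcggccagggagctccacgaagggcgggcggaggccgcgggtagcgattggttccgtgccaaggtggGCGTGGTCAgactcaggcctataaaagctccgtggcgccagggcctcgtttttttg
G6pdx: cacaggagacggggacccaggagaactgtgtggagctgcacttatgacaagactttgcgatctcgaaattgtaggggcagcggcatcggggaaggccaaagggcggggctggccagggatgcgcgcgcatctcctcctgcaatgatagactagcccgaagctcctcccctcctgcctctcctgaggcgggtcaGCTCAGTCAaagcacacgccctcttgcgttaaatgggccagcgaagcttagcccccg
The other holders, Gstm5, Mgst1, Nfe2l2 and Prdx1, were not called in #ii. Most members with an entry that were higher in #ii held no match in this window: Gsto1, Gss, Gsta1, Nqo1, Srxn1, Gpx1, Prdx3, Prdx5 and Pgd. Gsta4 and Prdx6, higher as well, had no entry. Whether the word bears on the changes in #ii was not tested.

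Line #v had 4 higher members (10.5%, against 5.11% of all genes) and 2 lower (5.26%, against 5.48%). Of these, Prdx3 and Pgd were higher in #ii as well, and Txnrd1, lower in #v, was higher in #ii. Its libraries did not overlap organoid AKP in 10 of 38 members, and in 17.8% of all genes. Gpx2 was at 523, 596 and 664 CPM in #v, against 249 to 332 CPM (median 281) in organoid AKP (1.05 ± 0.16, adjusted p = 2.49e-05). All 3 libraries exceeded every library of every other line. Mgst1 was at 38.7, 45.6 and 48.1 CPM in #v, against 16.5 to 23.7 CPM (median 20.9) in organoid AKP (1.08 ± 0.23, adjusted p = 0.00213), above every organoid AKP library and below every control library. Prdx3 (0.62) and Pgd (0.45) were higher, Gpx8 was lower at 5.99 ± 0.766 CPM in #v, against 13.99 ± 4.95 CPM in organoid AKP, and Txnrd1 was lower (-0.42). All 6 calls were made again within letter F, where 14 members were higher (14.5% of all genes) and 4 lower (13.7%). The count of higher members was 2 without #v replicate 3, where the calls of Prdx3 and Pgd were lost (that of Pgd also without #v replicate 2), and that of lower members was 1 without any 1 library of #v or without organoid AKP replicate 1 or 2, the call of Txnrd1 being lost in each. Fibroblast and muscle markers summed to 60.9 to 135 CPM in #v libraries, against 6.13 to 25.7 CPM in organoid AKP libraries, with 6 of 10 detected against 5. The sum came mostly from Vim (66.6 CPM, against 11.7 CPM) and Fn1 (18.7 CPM, against 3.51 CPM), while Col1a1 was at 0.131 CPM, against 0.205 CPM. Endothelial markers summed to 27.7 to 71 CPM in #v libraries, against 4.77 to 14.8 CPM in organoid AKP libraries, with 6 of 8 detected against 5, mostly from Prox1 (40.6 CPM, against 4.26 CPM), while Cdh5 was at 0.0955 CPM, against 0. Their part in the differences was not tested.

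Lines #i, #iii and #iv differed from organoid AKP in few members. In #i, 3 were higher (7.89%, against 3.1% of all genes) and 1 lower (2.63%, against 4.05%), and within letter E 2 were higher (3.56%) and 4 lower (4.45%). Mgst2 was at 32.8, 50.5 and 45.3 CPM in #i, against 17.2 to 34.4 CPM (median 22.5) in organoid AKP (0.89 ± 0.17, adjusted p = 0.00156), and overlapped it. Gsto1 was at 122, 127 and 133 CPM in #i, against 84.4 to 96.9 CPM (median 90.04) in organoid AKP (0.49 ± 0.11, adjusted p = 0.00611), and did not overlap, though the call was lost without #i replicate 3. No overlap was seen in 6 of 38 members, and in 15% of all genes. Sod2 was higher (0.34) and Slc7a11 lower (-0.80), both calls lost within letter E. The count of higher members was 5 without organoid AKP replicate 1, 6 without replicate 3 and 1 without #i replicate 3. That of lower members was 4 without organoid AKP replicate 1, 2 without replicate 3 or 6, and 0 without replicate 5 or any 1 library of #i.

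In #iii, 3 members were higher (7.89%, against 7.45% of all genes) and 3 lower (7.89%, against 8.79%), near the background on both sides. Within letter E the counts were 4 (7.69%) and 4 (8.58%), but only 3 of the 6 calls were made again: Txnrd1 was at 0.25, Gss at 0.17 and Hmox1 at -0.33, none of them called. Gsto1 was at 162, 145 and 155 CPM in #iii, against 84.4 to 96.9 CPM (median 90.04) in organoid AKP (0.77 ± 0.11, adjusted p = 5.21e-06), with every #iii library the higher. Cat was at 38.96, 40.1 and 41.7 CPM in #iii, against 49.2 to 68.3 CPM (median 52.9) in organoid AKP (-0.45 ± 0.16, adjusted p = 0.0473), with every #iii library the lower. Such separation was seen in 7 of 38 members, and in 19.7% of all genes. Txnrd1 (0.39) and Gss (0.44) were the other higher members, and Gstm1 (-1.04) and Hmox1 (-1.02) the other lower ones. The count of higher members was 1 without organoid AKP replicate 4, 5 or 6 or any 1 library of #iii, and that of lower members was 5 without organoid AKP replicate 1, 1 without #iii replicate 2 and 0 without #iii replicate 1 or 3.

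In #iv, Mgst2 alone was called, at 38.5, 45 and 34.2 CPM, against 17.2 to 34.4 CPM (median 22.5) in organoid AKP (0.76 ± 0.17, adjusted p = 0.00482), with the lowest #iv library inside the organoid AKP range. That is 1 higher member (2.63%, against 2.55% of all genes) and 0 lower (against 2.35%). By limma-voom and DESeq2 the count of lower members was 0 as well, and 1 member was lower at an unadjusted p under 0.05 in edgeR. The count of higher members was 0 without #iv replicate 2 and 2 without organoid AKP replicate 5. Within letter F, 7 members were higher (6.53%) and 1 lower (6.69%), with Mgst2 at 1.11.

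**Figure D5:**
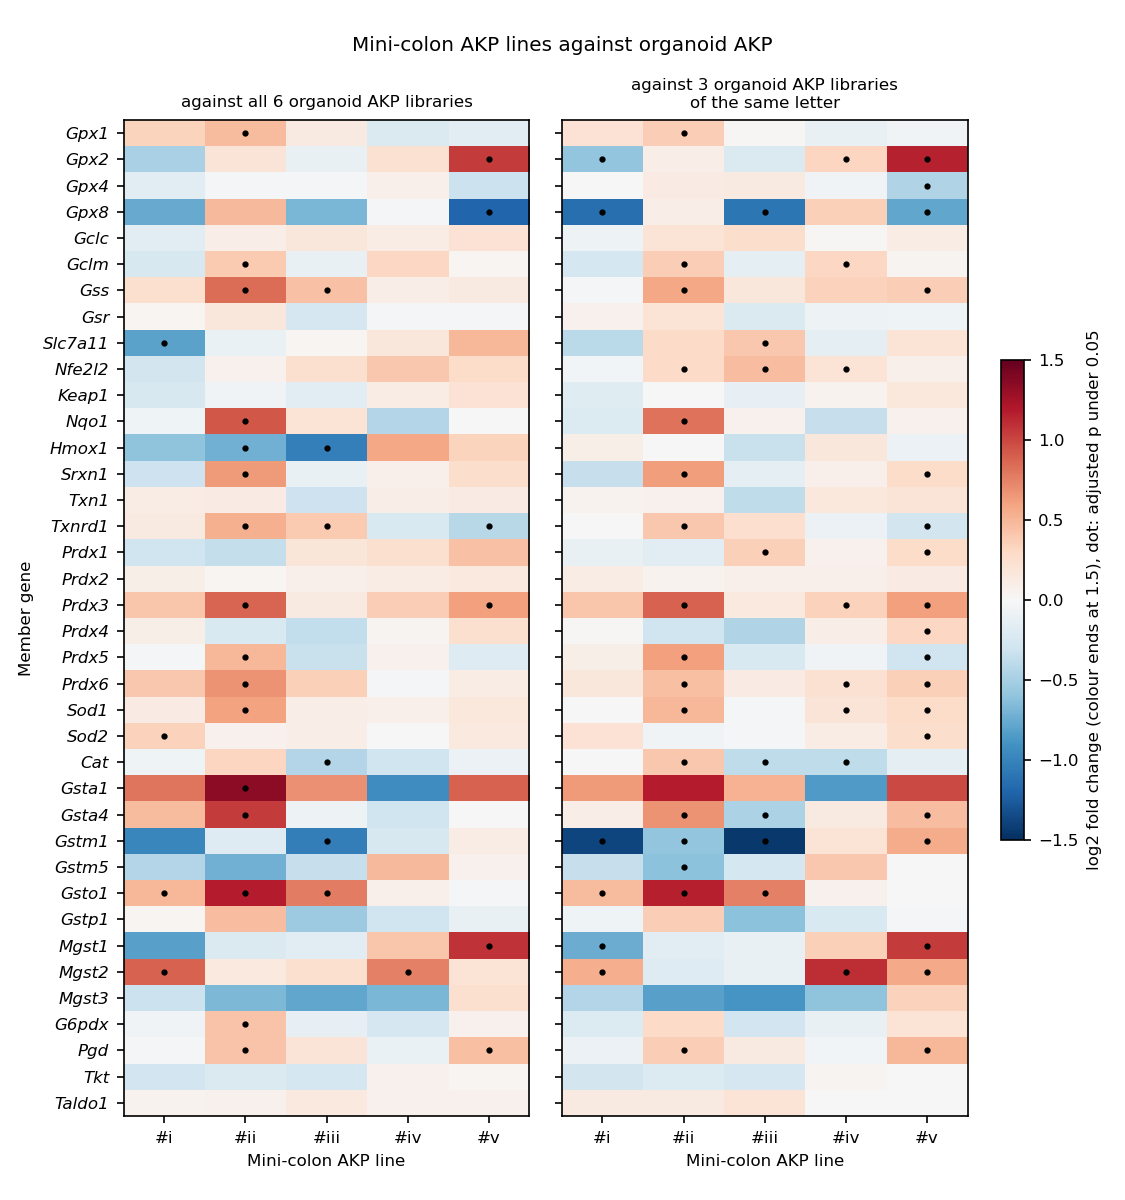
Log2 fold change of each member in the mini-colon AKP lines against organoid AKP, with all 6 organoid AKP libraries (left) and with the 3 of the same letter (right), dots marking calls and colours ending at 1.5. The column of #ii holds 15 higher members in both panels, and that of #v holds 4 on the left and 14 on the right.

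Between mini-colon lines, #v against #i set a crypt-derived against a lumen-derived line, but #v has letter F and #i letter E, so the lines share no letter. With a single line of each origin, line and origin cannot be told apart either. In all, 11 members were higher (28.9%, against 12.5% of all genes) and 4 lower (10.5%, against 11.9%). Gpx2 was at 523, 596 and 664 CPM in #v, against 197, 206 and 211 CPM in #i (1.54 ± 0.20, adjusted p = 2.02e-06), and Mgst1 at 38.7, 45.6 and 48.1 CPM, against 7.604, 16.9 and 11.2 CPM (1.89 ± 0.31, adjusted p = 7.58e-05). Neither overlapped. Slc7a11 (1.29), Prdx1 (0.73) and Nfe2l2 (0.54) were also higher, and Gsto1 (-0.51) and Mgst2 (-0.69) were lower. With the letter as a term, estimated from the lines that hold both, Gpx2, Mgst1, Slc7a11 and Gsto1 were still called, whereas Prdx1 (0.28, adjusted p = 0.315), Nfe2l2 (0.14, adjusted p = 0.523) and Mgst2 (-0.35, adjusted p = 0.283) were not. Fibroblast and muscle markers, mostly Vim (66.6 CPM, against 5.91 CPM) and Fn1 (18.7 CPM, against 2.76 CPM), summed to 60.9 to 135 CPM in #v libraries, against 6.73 to 11.7 CPM in #i libraries, with 6 of 10 detected against 4. Endothelial markers, mostly Prox1 (40.6 CPM, against 1.74 CPM), summed to 27.7 to 71 CPM, against 3.5 to 5.45 CPM, with 6 of 8 detected against 5. Their part was not tested. The Mgst2 call was also lost without #i replicate 2 or #v replicate 2. The count of higher members was 7 without #i replicate 3.

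Line #iii against the mean of #i and #ii set a crypt-derived line against the lumen-derived ones within letter E. As a single line stands for the crypt and its libraries are cultures of that line, line and origin cannot be told apart. No member was called higher (0, against 3.59% of all genes), with 0 by limma-voom, 1 by DESeq2 and 3 at an unadjusted p under 0.05 in edgeR, and 3 were lower (7.89%, against 3.57%). These were Gsta4, at 59.4, 62.9 and 78.9 CPM in #iii, against 96.8, 89.04 and 109.6 CPM in #i and 136, 158 and 144 CPM in #ii (-0.84 ± 0.20, adjusted p = 0.00588), Cat (-0.57) and Prdx5 (-0.57). The count of lower members was 1 without #iii replicate 1 and 0 without #iii replicate 2. In the fit of letter E libraries alone it was 9 (against 8.5% of all genes), with 3 higher (against 9.32%).

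Line #ii against #i, both lumen-derived and of letter E, was added after the values were seen. Here 10 members were higher (26.3%, against 2.57% of all genes) and 1 lower (2.63%, against 1.76%). Srxn1 was at 107 ± 17.8 CPM in #ii, against 55.4 ± 6.61 CPM in #i (0.96), and Nqo1 at 26.4 ± 2.88 CPM, against 13.1 ± 2.89 CPM (1.001; SD, n = 3 each). Gpx8 (1.24), Gclm (0.63) and Gsto1 (0.68) were higher and Mgst2 was lower (-0.74). The count of higher members was 6 without #i replicate 1 or 3 and 5 without #i replicate 2 or #ii replicate 3, and that of lower members was 0 without #i replicate 2 or 3 or any 1 library of #ii. In the fit of letter E libraries alone, 19 were higher (against 6.85% of all genes) and 2 lower (against 6%).

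Over the lines, Gpx2 averaged 594 ± 70.5 CPM in #v, 337 ± 11.9 CPM in #iv, 329 ± 22.6 CPM in #ii, 321 ± 51.2 CPM for in vivo AKP, 288 ± 36.3 CPM for organoid AKP, 265 ± 6.91 CPM in #iii, 205 ± 7.2 CPM in #i and 83.1 ± 27.7 CPM in control (SD, n = 3 for mini-colon lines and 6 for the others). Over all libraries, each of #iv, #ii, in vivo AKP and organoid AKP overlapped the next in this order. Within letter F, in vivo AKP (351.5 to 374.5 CPM) stood above organoid AKP (249.2 to 298.6 CPM). Within letter E these lines overlapped (268.8 to 283.1 CPM, against 262.8 to 331.9 CPM). There in vivo AKP lay below #ii (307.1 to 352.2 CPM), which has only letter E. Line #iii (257.5 to 270.8 CPM) did not overlap #i (197.1 to 211.4 CPM). Libraries of #v stood above all, those of #i below all other AKP libraries, and those of control lowest.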

How the data were processed

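Gene expression was measured in 33 QuantSeq libraries of 8 mouse colon organoid lines. An engineered allele of the AKP lines is not reported here. The deposited files hold whole-number read counts per gene identifier, 1 file per library, which the authors made by aligning to GRCm39 with STAR. The submitters' processing notes also name R 4.1.2, edgeR and limma. The annotation, counting tool and strand setting are not given in the sources used here, so reads of overlapping genes may be shared. Identifiers were given symbols from GENCODE M39 (31674 of 32285; those without held 6.85% of counts).

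The 13606 genes that reached 1 CPM in 3 or more libraries were fitted in 1 edgeR 4.0.16 model of the 8 lines (R 4.3.3, TMM scaling, robust quasi-likelihood F test), with p-values adjusted over all genes by the Benjamini-Hochberg method and called under 0.05. CPM are TMM-scaled. Interactions of line and library letter were fitted on control, organoid AKP and in vivo AKP. Total counts of 2438672 to 8256526 per library (median 3748649) set the precision. On simulated counts, 97% of 100 genes changed by 1 on the log2 scale were recovered for organoid AKP against control (12461 genes) and 82% for mini-colon AKP #i against organoid AKP (12579 genes). The changed genes were drawn only from those above a minimum mean count, so these rates do not cover members with fewer counts. No library pair looked like a duplicate deposit.

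Levels in every library were given for Gpx2 and for up to 12 members called with a change of 1 or more on the log2 scale in either direction, by largest F statistic over the 8 lines. From each list of other pathway genes, up to 3 called genes per comparison were eligible, by size of change, where the higher line averaged 5 CPM or more. Members and lists were chosen with earlier results of these data known, and #ii against #i was added after seeing the values. Alternatives were limma-voom (limma 3.58.1), DESeq2 1.42.0, no TMM scaling, no filter, the letter as a term, a replicate block, each letter alone, and leaving out each library.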

Additional observations from a re-analysis of the deposited data

Results flagged for a closer look

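In 3 of 114 sets of 6 libraries of a line, 1 library lay far from the others by Dixon's criterion, where chance alone gives about 1 set in 20. Cat was at 68.27 CPM in organoid AKP replicate 5, against 49.19 to 54.64 CPM in the others. G6pdx was at 53.24 CPM in in vivo AKP replicate 2, against 59.31 to 62.4 CPM in the others. Gpx8 was at 0.8815 CPM in control replicate 5, against 1.507 to 1.75 CPM in the others.

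The change of organoid AKP from control differed between library letters in 13 members by the interaction test (edgeR quasi-likelihood, adjusted p under 0.05). The log2 difference, letter F minus letter E, was -0.67 for Gpx1, -1.06 for Gpx2, 0.57 for Gclc, -0.38 for Keap1, -0.58 for Prdx1, -0.72 for Prdx3, -0.45 for Prdx6, -0.41 for Sod2, -0.73 for Gsta4, -0.97 for Gstm1, -0.67 for Mgst1, -0.65 for Mgst2 and -0.38 for Pgd, so that all but Gclc were negative.

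The change of in vivo AKP from organoid AKP differed between letters in 11 members by the same test. The difference was 0.62 for Gpx2, -0.72 for Gclc, -0.40 for Gclm, 0.99 for Prdx4, 0.60 for Cat, 1.36 for Gsta4, 1.99 for Gstm1, 0.90 for Gstm5, -0.34 for Gsto1, 0.83 for Mgst1 and -0.39 for Pgd. The 2 tests share the organoid AKP libraries.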

How the results depend on the processing

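Of 147 called values of single members, 142 kept their call with limma-voom, 146 with DESeq2, 143 without TMM scaling, 136 without the filter, 130 with the letter as a term and 137 with the replicate block. Of those that each letter could give, 107 of 125 held within letter E and 85 of 92 within letter F. The 1 reversal was Gsta4 in in vivo AKP against organoid AKP, 0.28 within letter F.

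Counts of called members moved by over 1.5 times as follows, and the cause was not tested. Brackets give the share of all genes called in either direction in the same fit. In vivo AKP against organoid AKP had 12 higher within letter F (50.3%) and 9 lower within letter E (27.8%). Line #i had 5 higher and 5 lower with DESeq2 (11.1%). Its lower count was 0 without the filter (3.22%), 2 with the letter as a term (3.6%) and 4 within letter E (8.01%). The lower count of #ii was 0 with limma-voom (25.6%), without the filter (13.8%) and with the letter as a term (20.7%). It was also 0 with the replicate block (18.9%), and 2 within letter E (23.8%). Line #iii had 1 higher and 5 lower without TMM scaling (15.7%). Its lower count was 1 with limma-voom (16.7%), with the letter as a term (10.4%) and with the replicate block (8.84%). Line #iv had 2 higher and 1 lower with the letter as a term (6.24%). It had 9 and 1 with the replicate block (24%), and 7 and 1 within letter F (13.2%). Line #v had 10 higher with the replicate block (28.9%), and 14 higher and 4 lower within letter F (28.2%). Line #iii against the mean of #i and #ii had 1 higher and 5 lower with DESeq2 (8.73%). It had 3 and 5 with the letter as a term (12%) and with the replicate block (10.4%). Within letter E it had 3 and 9 (17.8%), and without TMM scaling 8 lower (8.04%). Line #v against #i had 7 higher with the letter as a term (9.29%). Line #ii against #i had 19 higher and 2 lower within letter E (12.8%).

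Same-numbered libraries correlated at -0.124 to 0.431 in their deviations from the line means, those of the same letter and another number at -0.04 to 0.51, and same-numbered ones centred within letter at -0.082 to 0.151. Not every same-numbered correlation passed 0.1, so the numbers were not taken as pairs. Leaving out 1 library at a time gave these ranges of higher and lower members: 6 to 7 and 22 to 23 for organoid AKP against control, 6 to 7 and 12 to 15 for in vivo AKP against organoid AKP, 8 to 11 and 25 for in vivo AKP against control, 1 to 6 and 0 to 4 for #i, 13 to 16 and 0 to 2 for #ii, 1 to 4 and 0 to 5 for #iii, 0 to 2 and 0 for #iv, 2 to 5 and 1 to 2 for #v, 0 and 0 to 3 for #iii against the mean of #i and #ii, 7 to 9 and 3 to 4 for #v against #i, and 5 to 8 and 0 to 1 for #ii against #i. Genes with few counts, such as Gsta1 in the AKP lines, are limited by depth.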
